A study of Mus musculus with 9 samples.

Results

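The genes of the mitochondrial ribosome and of mitochondrial translation were followed in Hepa1-6 cells, a mouse hepatoma line, exposed to 1 of 2 pleuromutilin antibiotics. Of the 56748 genes counted, 104 protein-coding genes were taken by symbol alone. They were 49 genes named Mrpl for the large ribosomal subunit, 29 named Mrps for the small subunit, 17 mitochondrial aminoacyl-tRNA synthetases whose names end in ars2, and the 9 translation factors Tufm, Tsfm, Gfm1, Gfm2, Mtif2, Mtif3, Mtrf1, Mtrf1l and Mrrf. The study sequenced RNA from 3 control samples labelled as untreated, 3 samples given lefamulin at 37 µg/mL and 3 given tiamulin at 37 µg/mL, both for 2 days. The methods call the control a vehicle control, whereas the labels give no treatment for it. All 9 samples came from the same cell line, grown in DMEM with fetal bovine serum and penicillin-streptomycin, so streptomycin, itself a ribosome-directed antibiotic, was present in every group. Only 1 dose and 1 time point were measured for each drug, and the doses matched by mass. No source says whether the 3 samples of a group were separate cultures, so p-values measure the spread between these samples, which may be technical.

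Libraries held 15568887 to 18008105 counts. The hepatocyte genes Afp, Alb, Trf, Hnf4a and Foxa2 were above 1 FPKM in all 9 libraries, whereas Ttr (at most 0.103 FPKM) and Apoa1 (at most 0.269 FPKM) were nearly absent. Of the blood markers, Cd3e and Adgre1 were at 0 and Cd68 was at 6.09 to 15.7 FPKM. Of the fibroblast markers, Dcn was at 177 to 266 FPKM, whereas Col1a1 (at most 0.116) and Col1a2 (at most 0.00941) were nearly absent. The summed FPKM of the 9 hepatocyte markers was 741 to 810 in control, 710 to 756 under lefamulin and 573 to 628 under tiamulin. The sum of 4 fibroblast markers was 255 to 269, 194 to 203 and 180 to 194 in the same order, that of 5 blood markers was 6.85 to 7.34, 9.08 to 12.7 and 11.3 to 15.7, and that of 3 endothelial markers stayed at or below 0.121. The part of these differences in the results was not tested. Tiamulin replicate 2 stood apart: its counts differed from those of the other tiamulin libraries with a chi-square per degree of freedom of 18.2 and 20.7, against 2.88 to 7.61 for every other replicate pair. Its deviations from the group mean also rose with the GC content of the gene (rho = 0.41 across the 103 tested genes listed above and 0.544 across all genes, given as a description). GC trends were not limited to it: in the same order rho was 0.309 and 0.342 in control replicate 1, and −0.379 and −0.351 in control replicate 2. It was −0.208 and −0.377 in tiamulin replicate 1, and −0.344 and −0.413 in tiamulin replicate 3. In control replicate 3 and the lefamulin libraries rho ran from −0.127 to 0.12. Counts without tiamulin replicate 2 are given beside each comparison.

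Mitochondria keep their own ribosome, which translates the few mRNAs of the mitochondrial genome into core subunits of the respiratory chain and of ATP synthase. Its ribosomal RNAs are encoded by the mitochondrial genome, but all of its proteins, the translation factors and the tRNA synthetases are encoded in the nucleus, translated in the cytosol and imported. Pleuromutilins bind the peptidyl transferase centre of the bacterial large ribosomal subunit, and the mitochondrial ribosome descends from a bacterial one. Hepatocytes are rich in mitochondria.

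Promoter sequence gives the genomic setting of these genes. In the RefSeq promoter table, built on GRCm38.p6, 91 of the 104 genes had an entry. The others included Mrpl4, Mrpl13, Mrpl15, Mrpl19, Mrpl38, Mrpl54, Mrps28, Mrps34, Mrps35, Hars2, Pars2 and Mtif3. The 250 bases before each start were searched on both strands for letters of 4 known motifs. The letters GCGCATGCG are a core of the motif of NRF1, a transcription factor known for driving nuclear genes of mitochondria. They occurred for 9 of 91 genes (9.89%), against 1.64% of all 27025 genes in the table. The ETS-family letters CCGGAAG occurred in 22 of 91 (24.2%), against 7.83%. The YY1 letters AAGATGGCG occurred in 2 of 91 (2.2%, Mrpl36 and Mrps11), against 0.71%. TGATGNAAN, the letters of the element read by ATF4 and CHOP in stress responses, occurred in 0 of 91, against 3.89%. None of the 4 motifs contains another. A match is a run of letters and not evidence of binding. The table also holds genes too weakly expressed to be tested here, and the shares were not matched for expression or GC content. The 9 promoters with the NRF1 letters are shown because the letters were more frequent here than in the table as a whole. Each line runs 5′ to 3′ along the strand that carries the motif, and capitals mark it.
Mrpl9, chr3:94443298-94443326, gene on the + strand: aggcgcagctGCGCATGCGcggggtcctt
Mrpl10, chr11:97041437-97041465, gene on the + strand, motif opposite: gggccgctatGCGCATGCGtggagctggg
Mrpl17, chr7:105811080-105811108, gene on the − strand: ccgagttactGCGCATGCGtcctctgaga
Mrpl22, chr11:58171621-58171649, gene on the + strand: gcctcggactGCGCATGCGtatagtcagc
Mrpl32, chr13:14613106-14613134, gene on the − strand: tttgacccttGCGCATGCGcaagaggggc
Mrpl39, chr16:84735351-84735379, gene on the − strand: aaggagaggcGCGCATGCGcccccgcgtg
Mrps18b, chr17:35916646-35916674, gene on the − strand, motif opposite: tgctcccagtGCGCATGCGtcgggccgtt
Vars2, chr17:35667621-35667649, gene on the − strand, motif opposite: ggacacgcagGCGCATGCGtaaaagactc
Wars2, chr3:99141016-99141044, gene on the + strand: cagaggacagGCGCATGCGtagtaagcac

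The promoters of Cars2, Gfm1, Mrps25 and Yars2 are shown because their calls under tiamulin held in at least 20 of the 21 alternative fits given below. These 4 genes also carried the lowest adjusted p-values under tiamulin. Each is the 150 bases immediately before the RefSeq start, read 5′ to 3′ along the gene's strand. Capitals mark the only match to any of the 4 motifs, the ETS letters on the opposite strand, 18 to 12 bases before the start of Cars2. The 250 bases before Gfm1, Mrps25 and Yars2 held none of the letters.
Cars2, chr8:11550772-11550921, − strand: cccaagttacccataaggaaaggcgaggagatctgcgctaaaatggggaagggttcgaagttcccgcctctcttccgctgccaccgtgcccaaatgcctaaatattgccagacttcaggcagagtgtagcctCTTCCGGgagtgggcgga
Gfm1, chr3:67429965-67430114, + strand: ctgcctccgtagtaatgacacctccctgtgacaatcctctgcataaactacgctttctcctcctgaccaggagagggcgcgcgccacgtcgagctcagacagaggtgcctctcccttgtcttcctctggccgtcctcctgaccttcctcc
Mrps25, chr6:92184024-92184173, − strand: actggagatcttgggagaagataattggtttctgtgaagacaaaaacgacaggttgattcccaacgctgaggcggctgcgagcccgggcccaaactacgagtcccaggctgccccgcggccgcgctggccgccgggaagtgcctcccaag
Yars2, chr16:16302815-16302964, + strand: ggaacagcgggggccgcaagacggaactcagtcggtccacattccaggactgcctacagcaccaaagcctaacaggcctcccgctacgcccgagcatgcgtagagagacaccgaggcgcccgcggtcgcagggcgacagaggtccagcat

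All classes were expressed in control cells. Levels between genes are given in FPKM, which is per length. The median control level was 14.1 FPKM for large-subunit genes, 11.4 for small-subunit genes, 4.50 for the synthetases and 4.68 for the factors. The highest level in each class was that of Mrpl12, the stalk protein that recruits translation factors to the ribosome (67.0 ± 2.75 FPKM, SD, n = 3), Mrps21 (61.2 ± 3.11), Lars2, the leucyl-tRNA synthetase (16.6 ± 6.58), and Tufm, the factor that delivers charged tRNAs to the ribosome (64.3 ± 1.84). The lowest were Mrpl48 (2.08 ± 0.304 FPKM), Mrps10 (4.96 ± 0.18), Nars2, the asparaginyl-tRNA synthetase (1.49 ± 0.0329), and the release factor Mtrf1 (1.40 ± 0.23). Mrpl53 had 0 counts in all 9 libraries, so 103 genes entered the tests. It overlaps Gm42688 on the same strand, which had a mean of 18.4 counts, and an absence of Mrpl53 RNA cannot be told apart from reads left unassigned. The order of the levels barely moved between groups, with a Spearman rho across the 103 genes of 0.987 between control and lefamulin means and 0.988 between control and tiamulin means, given as a description because genes are not independent.

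**Figure D1:**
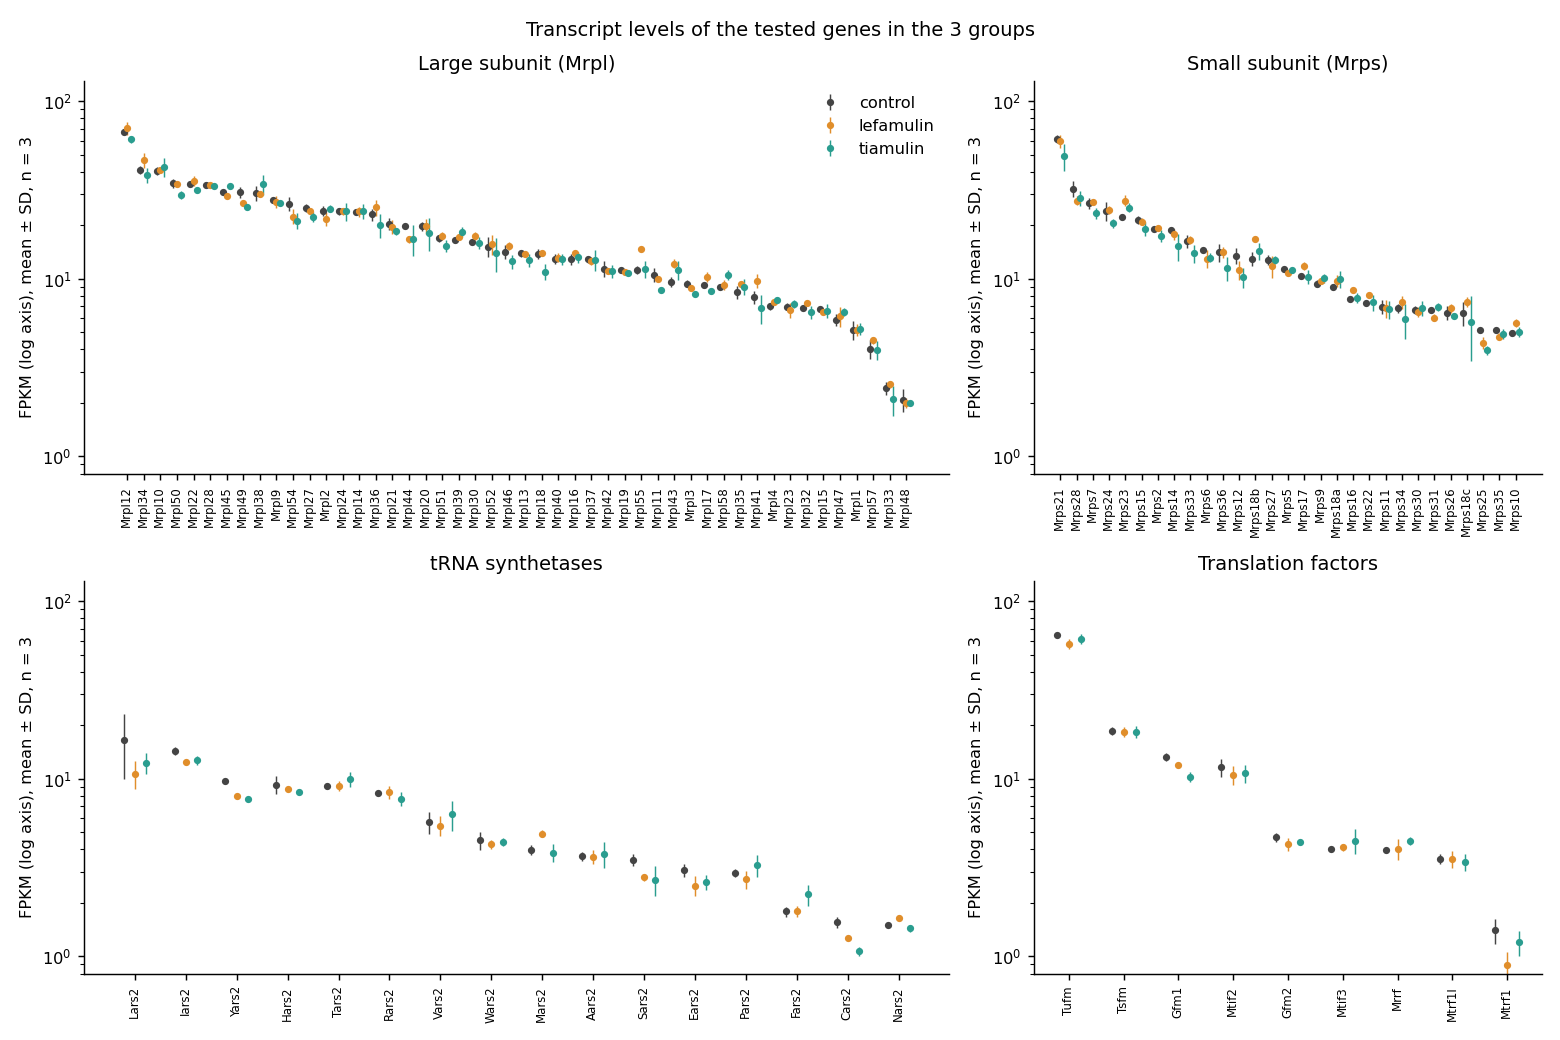
FPKM of the tested genes on a log axis, ordered by control level within the large subunit, the small subunit, the tRNA synthetases and the translation factors; points are group means and bars the SD of 3 libraries, and 1 synthetase is not shown. The 3 groups overlie each other for most genes, from 67.0 FPKM for Mrpl12 down to 1.40 FPKM for Mtrf1 in control, and Lars2 has the widest bar.

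Lefamulin was compared with control to see whether a drug aimed at a bacterial ribosome was accompanied by a change in the RNA of the mitochondrial one. With edgeR's quasi-likelihood test and Benjamini-Hochberg adjustment over all 14510 genes tested, 4 of the 103 genes were raised and 2 lowered at an adjusted p below 0.05, which is 5.83% called, against 13.1% of all genes. Of all genes, 7.07% were raised and 6.00% lowered. The study's rule for differential expression, an absolute log2(fold change) above 1 beside that threshold, took 0 of the 103 and 1.50% of all genes. An unadjusted p below 0.05 was found for 21 of the 103, against 3951 of the 14510 genes tested. The median log2(fold change) of the 103 was 0.00 and the values ran from −0.64 to 0.38, against a median of 0.00 for all genes. The median standard error was 0.09 for these genes and 0.111 for all genes. The 95% interval lay within ±1 for 101 of the 103, all but Lars2 and Mtrf1, and within ±0.5 for 92. Among the 14510 genes tested it lay within ±1 for 11784 and within ±0.5 for 8231.

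The genes raised by lefamulin were 1 large-subunit gene, 2 small-subunit genes and 1 synthetase. Levels from here on are CPM, the counts scaled to the TMM-adjusted size of each library. Mrpl55, a large-subunit protein with no bacterial counterpart, was at 14.9, 14.9 and 15.6 CPM in the lefamulin libraries, against 11.5, 12.3 and 11.1 in control and 11.0, 11.0 and 13.2 under tiamulin. All 3 lefamulin values lay above the other 6, and the log2(fold change) was 0.38 ± 0.11 (SE, edgeR adjusted p = 0.0321). Mrps18b, 1 of the mitochondrial relatives of bacterial S18, was at 34.4, 34.9 and 35.8 CPM under lefamulin, against 27.9, 24.5 and 29.3 in control and 32.5, 31.3 and 26.3 under tiamulin. Its groups did not overlap between lefamulin and control, with a log2(fold change) of 0.36 ± 0.10 (edgeR adjusted p = 0.0233). Mrps23, another small-subunit protein, rose from 33.3, 36.1 and 35.1 CPM to 45.0, 44.9 and 39.6, and stood at 40.8, 36.6 and 40.9 under tiamulin. The lefamulin change of 0.31 ± 0.08 on the log2 scale passed (edgeR adjusted p = 0.0216), and the tiamulin change of 0.18 ± 0.08 did not (adjusted p = 0.159). Mars2, which charges the methionyl-tRNA used to start and extend every mitochondrial protein, was at 53.3, 58.3 and 55.8 CPM under lefamulin, against 42.6, 48.2 and 44.6 in control. The groups were apart and the log2(fold change) was 0.31 ± 0.09 (edgeR adjusted p = 0.0362).

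Both genes lowered by lefamulin were tRNA synthetases. Yars2, which charges tyrosine, was at 24.4, 25.3 and 25.8 CPM under lefamulin against 31.1, 30.7 and 29.8 in control, without overlap, and fell by 0.28 on the log2 scale (SE 0.08, edgeR adjusted p = 0.0289). Iars2, which charges isoleucine, was at 112, 114 and 109 CPM against 135, 124 and 125, and fell by 0.19 on the log2 scale (SE 0.06, edgeR adjusted p = 0.0499), at the edge of the threshold. None of these 6 calls held under every alternative fit, and they were lost in 6 to 15 of 21. Without tiamulin replicate 2 the counts were 8 raised and 8 lowered, and without lefamulin replicate 1 or 2 both counts were 0. They were 0 and 1 without control replicate 1, 3 and 1 without control replicate 2, 1 and 0 without control replicate 3, 1 and 0 without lefamulin replicate 3, and 4 and 1 without tiamulin replicate 1 or 3. The share of all genes called moved as well. It was 24.9% without tiamulin replicate 2, 11.8% or 13.1% without tiamulin replicate 1 or 3, and 6.69% to 9.6% without a control or lefamulin library.

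Under tiamulin the direction was mostly downward. With the same test, 0 of the 103 genes were raised and 8 lowered against control, which is 7.77% called, against 16.4% of all genes, of which 9.08% were raised and 7.34% lowered. None passed both thresholds of the study, against 1.78% of all genes. An unadjusted p below 0.05 was found for 22 of the 103, against 4325 of the 14510 genes tested. The median log2(fold change) was −0.06 and the range −0.54 to 0.32, with 70 of 103 values (68.0%) below zero, against a median of 0.00 and 49.4% below zero for all genes. The 3 tiamulin libraries lay wholly below the 3 control libraries for 20 genes (19.4%, against 15.2% of all genes) and wholly above for 7 (6.8%, against 17.1%). Under lefamulin the same counts were 16 below (15.5%, against 18.8%) and 14 above (13.6%, against 18.9%). Without tiamulin replicate 2 the counts of called genes became 15 lowered and 4 raised; without control replicate 2 or 3 they were 5 or 4 lowered and 0 raised, and without tiamulin replicate 1, 9 lowered and 1 raised. With offsets for GC content and length 18 genes were lowered. The share of all genes called was 23.1% without tiamulin replicate 2 and 27.1% with the offsets. It was 11.1% or 9.85% without control replicate 2 or 3, and 13% without tiamulin replicate 1.

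**Figure D2:**
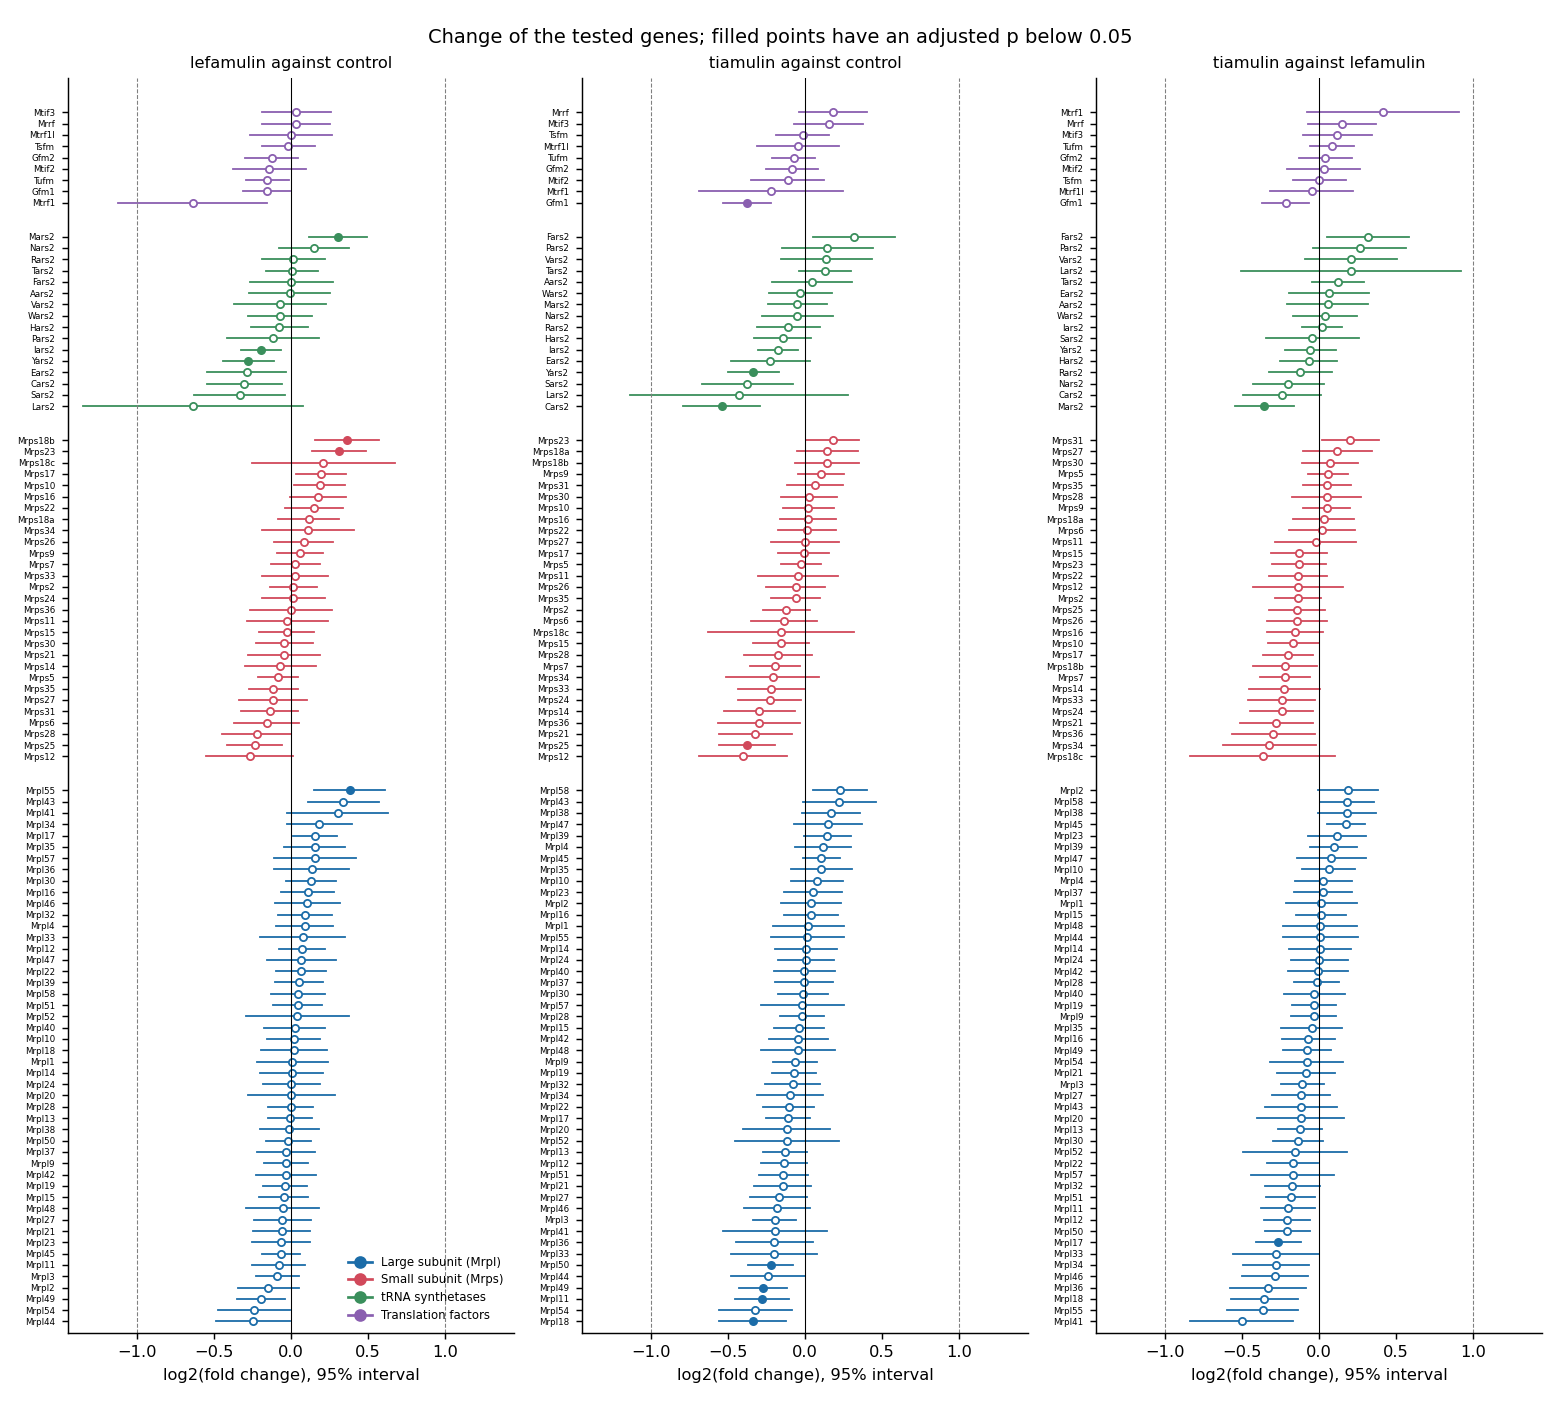
log2(fold change) with its 95% interval for the tested genes in the 3 comparisons, colored by class and ordered by value, with 1 synthetase not shown; filled points have an edgeR adjusted p below 0.05 and dashed lines mark ±1. There are 6 filled points in the first panel, 8 in the second, all left of zero, and 2 in the last.

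The 8 genes lowered by tiamulin came from every class. Gfm1, the elongation factor that moves the ribosome along the mRNA, had the lowest adjusted p. It was at 62.7, 58.2 and 56.7 CPM in control, 51.9, 53.1 and 54.0 under lefamulin, and 45.5, 48.4 and 42.9 under tiamulin. The 3 groups did not overlap, and the tiamulin level was 77.0% of control (log2(fold change) −0.38 ± 0.07, edgeR adjusted p = 0.00226). Under lefamulin Gfm1 was at 89.6% of control, a difference that did not pass (adjusted p = 0.165).

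Cars2, the cysteinyl-tRNA synthetase, which also makes cysteine persulfides, had the largest change. Its CPM was 11.7, 10.4 and 11.8 in control, 9.06, 9.20 and 9.24 under lefamulin, and 7.66, 8.24 and 7.41 under tiamulin. Again the groups were apart in this order, with a tiamulin level at 68.6% of control (log2(fold change) −0.54 ± 0.12, edgeR adjusted p = 0.00497). Lefamulin gave −0.30 ± 0.11, which did not pass (adjusted p = 0.0966). Yars2 was the only gene of the 103 called under both drugs in the same direction (0.971%, against 7.49% of all genes; both comparisons used the same control libraries). It was at 23.8, 23.6 and 25.1 CPM under tiamulin, below every control value, with a log2(fold change) of −0.34 ± 0.08 (edgeR adjusted p = 0.00833).

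In the small subunit, Mrps25 was lowered by tiamulin. It was at 25.0, 25.3 and 28.0 CPM against 34.5, 33.2 and 34.2 in control (log2(fold change) −0.38 ± 0.08, edgeR adjusted p = 0.00662). Under lefamulin it was at 27.6, 27.6 and 31.4 CPM, also below all controls, without passing (adjusted p = 0.0803). Mrps25 is a mitochondria-specific protein of the small subunit.

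The other 4 genes belonged to the large subunit, and all of them were apart from control. Mrpl49, mitochondria-specific, was at 46.3, 47.4 and 49.7 CPM against 59.7, 52.8 and 60.7 in control (log2(fold change) −0.27 ± 0.07, edgeR adjusted p = 0.018). Mrpl50, likewise without a bacterial counterpart, was at 65.6, 58.9 and 64.0 CPM against 71.3, 78.3 and 70.6 (−0.22 ± 0.07, adjusted p = 0.0361). Both are structural proteins of the assembled subunit. Mrpl11, the counterpart of bacterial L11 at the base of the stalk, was at 29.2, 27.5 and 27.7 CPM against 32.5, 37.5 and 32.6 (−0.28 ± 0.08, adjusted p = 0.0287). Mrpl18, the counterpart of bacterial L18, was at 15.7, 13.5 and 16.8 CPM against 18.1, 19.7 and 20.4 (−0.34 ± 0.10, adjusted p = 0.0342). Of the 8 calls, those of Gfm1, Mrps25 and Yars2 held in all 21 alternative fits. The call of Cars2 was lost in 1 (adjusted p = 0.0552 by limma on log2(FPKM + 1) with no filter), and the other 4 were lost in 5 to 11.

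**Figure D3:**
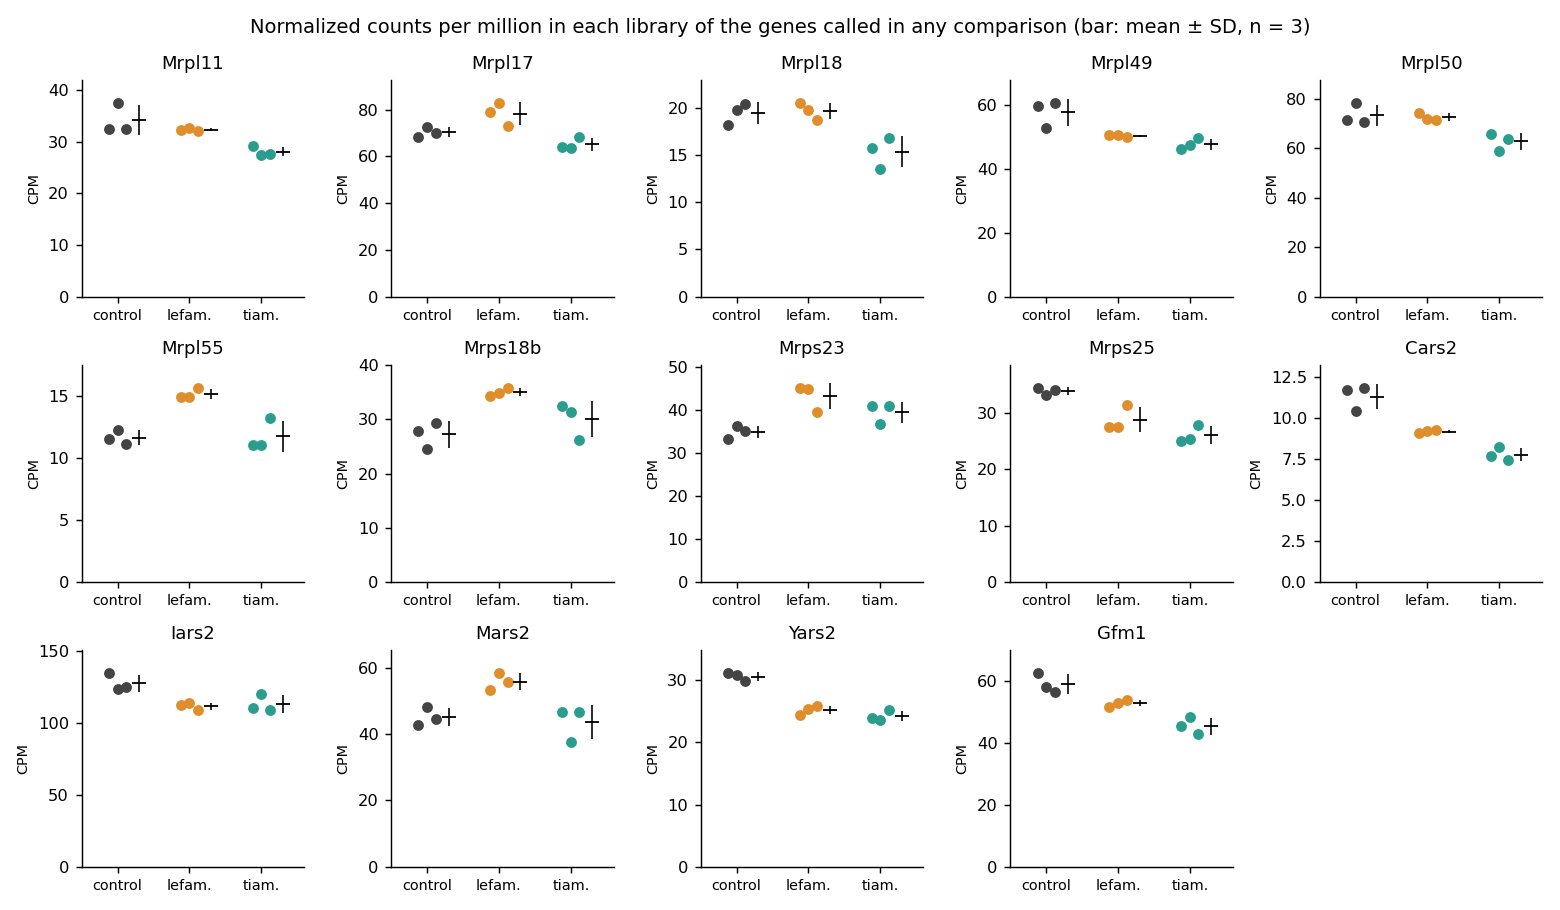
Normalized CPM in each of the 9 libraries for the 14 genes called in any comparison, with the mean and SD of each group (n = 3) beside the points and axes from 0. Gfm1 and Cars2 step down from control to lefamulin to tiamulin, Mrpl55 is high in the lefamulin libraries only (14.9 to 15.6 CPM), and Yars2 is low under both drugs.

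The factors outside Gfm1 did not pass under either drug. Of the initiation factors, Mtif2 was at 45.1 ± 5.27 CPM in control, 40.9 ± 4.76 under lefamulin and 41.7 ± 4.93 under tiamulin (SD, n = 3), and Mtif3 at 20.7 ± 0.115, 21.2 ± 0.909 and 23.0 ± 3.56. Of the elongation factors, Tufm was at 137 ± 3.94, 123 ± 8.22 and 130.4 ± 7.52 CPM, with all 3 lefamulin libraries below the controls but an edgeR adjusted p of 0.139. Tsfm, which recharges Tufm, stood at 54.2 ± 2.66, 53.6 ± 3.68 and 53.6 ± 4.15 CPM. The recycling factors Mrrf and Gfm2, which split the ribosome after termination, had log2(fold changes) of 0.03 and −0.12 under lefamulin and 0.18 and −0.08 under tiamulin, all with an adjusted p of 0.268 or higher. Of the release factors, Mtrf1l had a log2(fold change) of 0.00 under lefamulin (95% interval −0.27 to 0.27) and −0.05 under tiamulin. Mtrf1, the least expressed factor, was at 2.77, 3.84 and 3.57 CPM in control, 1.98, 1.92 and 2.63 under lefamulin, and 3.10, 2.37 and 3.23 under tiamulin. The lefamulin values lay below all controls at 64.3% of their level, yet the interval of the log2(fold change) ran from −1.12 to −0.15 and the adjusted p was 0.0792. Mtrf1 passed with GC content and length offsets (edgeR adjusted p = 0.0301, and 0.0384 with the replicate block added) and without tiamulin replicate 2 (adjusted p = 0.0429). Lars2 had a point estimate of the same size, −0.64, with a still wider interval of −1.35 to 0.08, because its control libraries stood at 117, 263 and 174 CPM. Its log2(fold change) was −0.88 without control replicate 1 (edgeR adjusted p = 0.0288) and −0.29 without control replicate 2 (adjusted p = 0.369).

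The protein Mrpl3 is the counterpart of the bacterial protein L3, which lies beside the pleuromutilin site. Its level was 62.8 ± 2.81 CPM in control, 59.1 ± 1.02 under lefamulin and 54.8 ± 2.02 under tiamulin (SD, n = 3). The tiamulin libraries lay below the controls, but the log2(fold change) of −0.20 ± 0.07 did not pass (edgeR adjusted p = 0.0535). Mrpl12 was at 103 ± 4.26, 108 ± 9.35 and 93.8 ± 3.99 CPM, with adjusted p-values of 0.557 and 0.213.

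By subunit, the RNA of both sets of ribosomal proteins stayed close to control. The median log2(fold change) under lefamulin was 0.01 for the 48 tested large-subunit genes and 0.01 for the 29 small-subunit genes, against −0.08 for the 17 synthetases and −0.12 for the 9 factors. Under tiamulin the 4 medians were −0.06, −0.06, −0.05 and −0.07. The summed CPM of the large-subunit genes was 99.6% to 100.7% of the control mean in the control libraries, 99.3% to 103.5% under lefamulin and 93.5% to 98.9% under tiamulin. For the small subunit the sums were 99.0% to 100.8%, 99.5% to 104.4% and 91.8% to 96.5%. In both subunits the sum of every tiamulin library lay below that of every control library. The median log2 ratio of the genes to the control mean was also taken in each library. For the large subunit it was −0.0514, −0.127 and 0.008 in tiamulin replicates 1 to 3, against −0.0274, 0.0045 and −0.0063 in control. For the small subunit it was −0.0738, −0.0864 and −0.0595, against 0.0032, 0.028 and −0.0112. The factors summed to 98.6% to 100.8% in control, 90.6% to 94.2% under lefamulin and 91.7% to 96.8% under tiamulin, and the synthetases, where Lars2 weighs heavily, to 93.3% to 109.7%, 81.9% to 90.9% and 86.2% to 92.1%. A class sum is carried by its most abundant genes and was not tested. CPM is a share of each library and not an amount of RNA per cell. In these bulk samples, fewer cells carrying an RNA and a smaller share of it in each cell cannot be told apart.

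Under lefamulin both RNAs of the ribosome were lower than control. The large-subunit rRNA mt-Rnr2 was at 789, 814 and 756 CPM in control, 334.5, 357 and 377 under lefamulin, and 679, 506 and 722 under tiamulin. Lefamulin lay far below control at 45.3% of its level (log2(fold change) −1.14 ± 0.10, edgeR adjusted p = 8.01e-06), while the tiamulin libraries, at 80.9%, were also below control but did not pass (adjusted p = 0.053; it passed in 7 of 21 alternatives, with adjusted p from 2.48e-05 to 0.241). The small-subunit rRNA mt-Rnr1 was at 207, 223 and 202 CPM in control, 133, 136 and 127 under lefamulin, and 229.8, 162 and 214 under tiamulin. It was at 62.6% of control under lefamulin (−0.68 ± 0.10, adjusted p = 0.000467) and at 95.8% under tiamulin (adjusted p = 0.724). Under lefamulin mt-Rnr2 passed both thresholds of the study. It did so in 21 of 21 alternatives, with log2(fold changes) from −1.21 to −1.10. Between the drugs themselves, tiamulin was higher by 0.84 ± 0.10 for mt-Rnr2 (adjusted p = 0.000776) and by 0.61 ± 0.10 for mt-Rnr1 (adjusted p = 0.00374). Tiamulin replicate 2 had the lowest value of both rRNAs in its group. How the libraries were selected for mRNA is not given in the sources used here, so the rRNA values compare libraries and are no measure of the amount of rRNA.

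**Figure D4:**
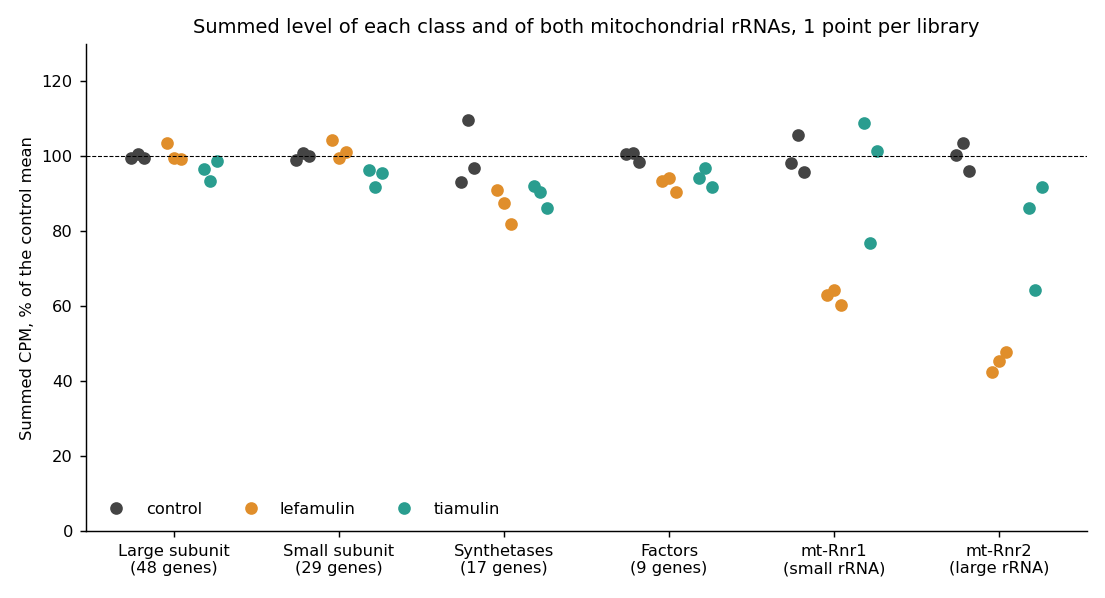
Summed CPM of each class, and CPM of the rRNAs mt-Rnr1 and mt-Rnr2, in each library as a percentage of the control mean. The protein classes sit between 81.9% and 109.7% in all libraries, whereas the lefamulin libraries sit at 60.5% to 64.3% for mt-Rnr1 and at 42.5% to 48.0% for mt-Rnr2.

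Lefamulin and tiamulin share the pleuromutilin core and differ in the side chain attached to it. They were compared directly at 37 µg/mL, a dose matched by mass only, and 2 days, as the only pair, with p-values adjusted over all genes tested. In the paper's longer viability assay on these cells, the median inhibitory concentration lay below this dose for lefamulin and above it for tiamulin. Tiamulin was lower than lefamulin for 2 of the 103 genes and higher for 0 (1.94% called, against 4.90% of all genes, of which 2.85% were higher and 2.05% lower). An unadjusted p below 0.05 was found for 28 of the 103, against 3132 of the 14510 genes tested. Mrpl17, the counterpart of bacterial L17, was at 78.8, 82.8 and 73.1 CPM under lefamulin and at 63.8, 63.4 and 68.1 under tiamulin, with control between them at 68.2, 72.4 and 70.1. The groups of the 2 drugs did not overlap, and tiamulin was lower by a log2(fold change) of −0.26 ± 0.07 (edgeR adjusted p = 0.037). Mars2 was at 46.5, 37.6 and 46.6 CPM under tiamulin, near control and below the lefamulin values given above, with −0.36 ± 0.09 (adjusted p = 0.0354). The call of Mars2 was lost in 9 of 21 alternatives and that of Mrpl17 in 12.

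Across the ribosomal proteins the tiamulin libraries were the lower ones more often. The median log2(fold change) of tiamulin against lefamulin was −0.12 over the 77 tested genes of both subunits, with 52 of 77 below zero (67.5%, against 49.6% of all genes), and 0.04 for both the synthetases and the factors. Of the 103 genes, 27 had all 3 tiamulin values below all 3 lefamulin values (26.2%, against 12.9% of all genes) and 5 had them above (4.85%, against 13.6%). For both subunits these counts were 23 of 77 (29.9%) and 4 (5.19%). The library medians of the log2 ratio to control overlapped between the drugs for the large subunit. They ran from −0.127 to 0.008 under tiamulin and from −0.0069 to 0.0461 under lefamulin. For the small subunit they did not overlap (−0.0864 to −0.0595 and −0.0018 to 0.0393). Tiamulin replicate 2 had the lowest median in both. Differences between the drugs were small. The 95% interval lay within ±1 for all 103 genes and within ±0.5 for 87, so a difference beyond 1.41-fold remained possible for the others. Among the 14510 genes tested it lay within ±1 for 12020 and within ±0.5 for 8598. Without tiamulin replicate 2 the counts were 7 lower and 1 higher, and without tiamulin replicate 3 they were 6 and 0. They were 1 and 0 without tiamulin replicate 1 or without control replicate 1 or 2, and 0 and 0 without control replicate 3 or any lefamulin library. The share of all genes called was 8.79% without tiamulin replicate 2 and 6% without tiamulin replicate 3. It ran from 1.37% to 3.74% without any other library.

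**Figure D5:**
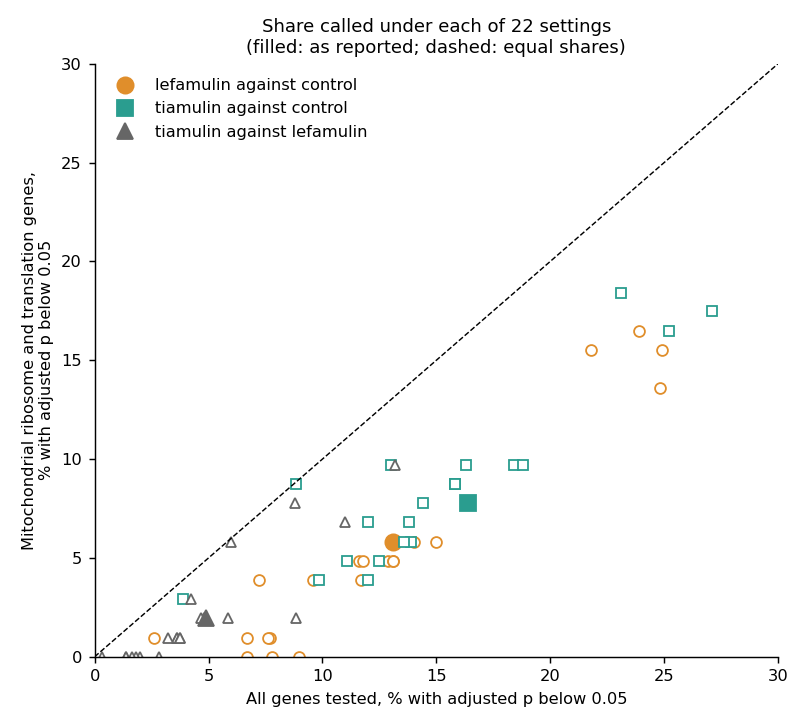
Percent of the 103 genes called (vertical axis) against the percent of all genes called (horizontal axis) in each of 3 comparisons under 22 settings, the fit as reported (filled) and 21 alternatives (open); the dashed line marks equal shares. All points lie below the line, with 0% to 18.4% of the 103 genes called against 0.343% to 27.1% of all genes.

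Other genes that serve mitochondrial gene expression were read from 5 lists of 69 genes, of which 67 were tested. Under lefamulin 4 rose and 2 fell (8.96% called, against 13.1% of all genes), under tiamulin 4 rose and 1 fell (7.46%, against 16.4%), and between the drugs 0 differed at the edgeR threshold (against 4.90%). Between the drugs, 15 of the 67 had an unadjusted p below 0.05, against 3132 of the 14510 genes tested. The median log2(fold changes) of the 67 were −0.01 under both drugs and −0.03 between the drugs. Of 23 tested genes for assembly of the ribosome and modification of its rRNA, Mpv17l2, an assembly factor of the inner membrane, rose under lefamulin (0.34 ± 0.08, edgeR adjusted p = 0.0165) and under tiamulin (0.30 ± 0.08, adjusted p = 0.0264), and Noa1, a GTPase of small-subunit assembly, fell under lefamulin (−0.28 ± 0.08, adjusted p = 0.045). Of 20 genes for mitochondrial tRNA, Nsun3, which modifies the anticodon of the methionine tRNA, rose under both drugs, from 7.07 CPM to 10.9 and 10.3 (0.62 ± 0.16 and 0.54 ± 0.16, adjusted p = 0.018 and 0.0305). Gars, whose product charges glycine in the cytosol and in mitochondria alike, rose under tiamulin to 113.8% of control (adjusted p = 0.0137).

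Of 9 tested genes for mitochondrial mRNA and its translation, Mtres1 rose under both drugs (0.31 ± 0.09 and 0.29 ± 0.09, adjusted p = 0.0281 and 0.0341), and Slirp, which stabilizes mitochondrial mRNAs, rose under lefamulin (0.69 ± 0.21, adjusted p = 0.0422). Slirp stood at only 2.37 CPM in control. Of 5 ribosomal proteins under other names, Ptcd3, a small-subunit protein, fell under tiamulin from 162 to 137 CPM (−0.25 ± 0.07, adjusted p = 0.022). Of 10 genes on the list for mitochondrial transcription, Twnk, the helicase of mitochondrial DNA replication, fell under lefamulin (−0.27 ± 0.06, adjusted p = 0.0141); all 10 values were below zero under lefamulin, with a median of −0.17, and 9 of 10 under tiamulin, with a median of −0.17. Of all genes, 50.3% and 49.4% were below zero, and of the 10 only Twnk was called under lefamulin and 0 under tiamulin. Across the 2 drugs these counts share the control libraries. The list also held Polg, Polg2 and Ssbp1, which like Twnk belong to mitochondrial DNA replication. Mterf1a and Mterf1b stood at only 2.27 and 1.2 CPM in control.

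Calls were also counted by promoter letters. Of the 9 genes with the NRF1 letters, 1 was called under lefamulin, Mrps18b, and 0 under tiamulin. The 81 tested genes without these letters had 5 and 8 calls (6.17% and 9.88%), and the shares of all genes were 13.1% and 16.4%. Of the 21 tested genes with the ETS letters, 1 was called under lefamulin and 2 under tiamulin, with median log2(fold changes) of 0.05 and −0.11. The 69 tested genes without them had medians of 0.00 and −0.05, and 5 and 6 calls.

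Some symbols need care. Mrps30 and Mrps18a are named for the small subunit, although their proteins are now placed in the large one, and Mrps36 is now assigned to a dehydrogenase complex; all 3 were kept in the class of their name and none was called. Of the 104 genes, 55 overlap another gene, 33 of them a gene on the opposite strand with a mean of at least 10 counts and 7 one on the same strand. Whether the counting used strand is not given in the sources used here, so reads of such pairs cannot be told apart. Mrps25 overlaps Nr2c2, Cars2 overlaps Naxd, Mrpl49 overlaps Syvn1 and Mrpl18 overlaps Tcp1, whose log2(fold changes) under tiamulin were 0.04, −0.00, 0.04 and −0.08, none of them called. Mrps18b overlaps Gm16279 on the opposite strand, which had a mean of 28.0 counts and a log2(fold change) of 0.66 under lefamulin (adjusted p = 0.138). Iars2 overlaps Rab3gap2, which was at 0.00 under lefamulin (adjusted p = 0.981). Twnk, called under lefamulin, overlaps Mrpl43 on the opposite strand, with a mean of 1326 counts against 280.3 for Mrpl43. Under lefamulin Mrpl43 had a log2(fold change) of 0.34 (edgeR adjusted p = 0.0534), opposite in sign to that of Twnk.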

How the data were processed

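RNA-seq was analysed for 9 libraries of Hepa1-6 cells, 3 per group. The authors deposited raw read counts per gene for 56748 genes, and FPKM, which equalled the deposited counts per length and library total (0.993 to 1.01 times the count sum). The submitters' processing notes name CASAVA 1.8, fastp, HISAT2 2.0.5, featureCounts 1.5.0-p3, DESeq2 1.20.0 and mm10. The deposited positions equalled those of GRCm38 for only 2 of the 104 genes, so they were not printed, and coordinates here are those of RefSeq promoters on GRCm38.p6. Genes and lists were chosen with earlier results of these data known.

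Counts were fitted with edgeR 4.0.16 in R 4.3.3 (TMM, filterByExpr, robust quasi-likelihood test, 1 fit of 9 libraries with group as the term), and p-values were adjusted by Benjamini-Hochberg over 14510 genes and called below 0.05. The fit was also run on simulated counts. These held no GC trend and no deviating library, so they could not check the calls made here. Alternatives used DESeq2 1.42.0, limma 3.58.1 on log2(FPKM + 1) or log2(FPKM + 0.1), other scalings and filters, offsets, the replicate number and leaving out each library. Named genes were all factors, up to 5 genes called per class, direction and comparison with the smallest adjusted p, Mrpl3, Mrpl12, the highest and lowest of each class in control, and up to 2 called genes per list and direction. Mrpl53, genes named only for the place of their entry and neighbours of called genes were added after their values were seen. The lowest count of a tested gene was 31 and the median 532. Values of 1 synthetase gene and of 2 markers are not reported here singly. Counting error was not treated apart from the spread of replicates.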

Additional observations from a re-analysis of the deposited data

Results flagged for a closer look

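Between the drugs themselves, 2 nuclear genes and both mitochondrial rRNAs differed, which drew attention to them. Mrpl17 was lower under tiamulin than under lefamulin by a log2(fold change) of −0.26 (edgeR adjusted p = 0.037), with 3 of 3 tiamulin libraries below every lefamulin library. Mars2 was lower by −0.36 (adjusted p = 0.0354), again in 3 of 3 libraries. Over the alternatives the adjusted p ran from 0.00431 to 0.181 for Mrpl17 and from 0.000155 to 0.209 for Mars2. The large-subunit rRNA mt-Rnr2 was higher under tiamulin by 0.84 (adjusted p = 0.000776) and the small-subunit rRNA mt-Rnr1 by 0.61 (adjusted p = 0.00374), each in 3 of 3 libraries. Over the alternatives the adjusted p ran from 9.57e-37 to 0.0461 for mt-Rnr2 and from 3.73e-16 to 0.0896 for mt-Rnr1. The reason for these differences was not tested.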

How the results depend on the processing

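Counts are given in the order raised and lowered by lefamulin, raised and lowered by tiamulin, and higher and lower under tiamulin than lefamulin; as reported they were 4 and 2, 0 and 8, and 0 and 2. They became 7 and 10, 0 and 18, and 1 and 9 with GC content and length offsets, 7 and 7, 0 and 4, and 0 and 0 with each pair of groups alone, 3 and 1, 0 and 9, and 0 and 1 by limma on log2(FPKM + 1), 4 and 1, 0 and 9, and 0 and 1 on log2(FPKM + 0.1), and 0 and 1, 0 and 3, and 0 and 0 on log2(FPKM + 1) with no filter. Those lowered by lefamulin were 1 with DESeq2 size factors or upper-quartile factors and 0 with no filter on counts. DESeq2 itself gave 4 and 2, 0 and 10, and 0 and 2. Leaving out 1 library gave 0 to 8 raised and 0 to 8 lowered by lefamulin, 0 to 4 raised and 4 to 15 lowered by tiamulin, and 0 to 1 higher and 0 to 7 lower between the drugs. None of the 103 genes passed both thresholds in any of the 21 alternatives, and in all of them the share called stayed below that of all genes. Over the 22 settings the share of all genes called moved too. It ran from 2.61% to 24.9% under lefamulin, 3.88% to 27.1% under tiamulin and 0.343% to 13.2% between the drugs. Under tiamulin with no filter on counts the 2 shares were nearly equal, at 8.74% and 8.84%.

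The replicate numbers gave no sign of pairing: same-numbered libraries had correlations of −0.51 to 0.044 between their deviations. Differently numbered libraries had correlations from −0.448 (control 1 with tiamulin 3) to 0.512 (control 1 with tiamulin 2). Deviations within a group depend on each other, so these correlations do not settle whether samples were paired. With the replicate block, 0 genes were raised and 0 lowered by lefamulin, 0 raised and 5 lowered by tiamulin, and 0 differed between the drugs; with block and offsets together the counts were 7 and 9, 0 and 17, and 1 and 6.

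No direction of a called gene turned, and of the 16 calls among the 103 genes 3 held in all 21 alternatives. Scalings moved the median of all genes by at most 0.0138. The cause of these changes was not tested, apart from the smaller number of samples when libraries or groups were left out. Class medians moved by more than the spread between libraries in 20 cases and by less in 232. With 3 libraries a group, the smallest called change was 0.19 on the log2 scale.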
